A study of Mus musculus with 15 samples.

Results

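Hepcidin and 9 further genes of BMP signalling and iron handling were followed across cultured mouse hepatocytes exposed to different sera. The genes were all rows of the count table with the symbols Hamp, Id1, Id2, Id3, Smad6, Smad7, Tfrc, Trf, Slc40a1 and Steap4, which gave 10 of the 38087 gene rows, and all 10 passed the filter on low counts. RNA sequencing after depletion of ribosomal RNA was done on cryopreserved primary hepatocytes of CD-1 mice, an outbred strain, that were given serum from conventionally raised (ConvR) mice or from germ-free (GF) mice, which carry no microbes. All cells were plated at 200000 per well, attached for 6 h and later kept for 24 h in medium with 25% mouse serum, and then received 8 ng/mL mouse growth hormone or vehicle (PBS) for 2 h. The medium of every group also held dexamethasone at 0.1 µM, and insulin and human transferrin at 6.25 µg/mL each.

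Of 15 labelled samples, 13 had a count column that could be assigned, in 5 groups. These were male hepatocytes in ConvR male serum (m_pHep_m_ConvR, n = 3), female hepatocytes in ConvR male serum (f_pHep_m_ConvR, n = 3), female hepatocytes in ConvR female serum (f_pHep_f_ConvR, n = 2, replicates 2 and 3), female hepatocytes in GF female serum (f_pHep_f_GF_serum, n = 2, replicates 2 and 3), and the last of these with growth hormone (f_pHep_f_GF_serum_GH, n = 3). The male and the female cells came from stocks of different donors, so that sex and donor cannot be told apart. No age of the donors and no number of serum donors is given in the sources used here. Whether replicates stem from separate wells, donors or batches of serum is not stated in the labels, and p-values measure the spread between these libraries, which may be technical.

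Hepcidin, the product of Hamp, is a peptide hormone made by hepatocytes. It binds ferroportin, the iron exporter of mammalian cells, encoded by Slc40a1, and causes its removal from the cell surface, so that high hepcidin keeps iron in cells and lowers iron in plasma. Transcription of Hamp is driven by BMP ligands, mainly from liver endothelium, through receptors and SMAD proteins, with the co-receptor hemojuvelin (Hjv), and by IL-6 through STAT3. Id1, Id2, Id3, Smad6 and Smad7 are widely used readouts of the same BMP and SMAD signal, and Smad6 and Smad7 inhibit it in turn. Trf encodes transferrin, the plasma carrier of iron, Tfrc encodes the transferrin receptor that takes it up, and Steap4 encodes a metalloreductase that is also known to respond to inflammatory signals.

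The Hamp promoter carries the sequences through which both signals are known to act, and it is shown here because the values of Hamp, of the BMP readouts and of Steap4 are compared below. Bases 220 to 21 before the RefSeq start of Hamp lie at chr7:30944050-30944249 on the minus strand of GRCm38.p6. In the line below, capitals mark GGCGCC, the core of a BMP-responsive element, and TTCNNNGAA, the pattern bound by STAT proteins.
Hamp: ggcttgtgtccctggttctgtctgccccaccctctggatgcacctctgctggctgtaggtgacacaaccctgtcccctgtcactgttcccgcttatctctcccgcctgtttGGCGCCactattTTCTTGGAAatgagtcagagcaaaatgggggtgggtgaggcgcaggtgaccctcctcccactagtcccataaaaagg

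Both motifs read the same on either strand, and the matches in Hamp do not overlap: GGCGCC begins 109 bases and TTCTTGGAA 97 bases before the start. Of 32851 RefSeq promoter windows of the same length (250 bases before to 50 after a start), 11.9% held GGCGCC, 8.3% held TTCNNNGAA and 0.645% held both. The promoter table held 6 of the 10 genes, namely Hamp, Id2, Id3, Smad6, Tfrc and Steap4; Id1, Smad7, Trf and Slc40a1 were not in it. Among these 6, GGCGCC occurred also in Id2, 231 bases before the start (stretch shown: chr12:25096306-25096335, minus strand), and in Tfrc, 89 bases before (stretch shown: chr16:32608795-32608824, plus strand), and TTCNNNGAA also in Steap4, 116 bases before (stretch shown: chr5:7960344-7960376, plus strand). The windows of Id3 and Smad6 held neither string of letters. Tfrc had 2 windows with different starts. Its match is counted from the start of the first, and the second (chr16:32608872-32609171, plus strand) held neither string. The matches outside Hamp stand in these stretches, with the motif in capitals.
Id2: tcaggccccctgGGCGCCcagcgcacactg
Tfrc: acctgccgccttGGCGCCttttctaggcta
Steap4: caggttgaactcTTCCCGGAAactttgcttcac

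Mice have a close copy of the hepcidin gene, Hamp2, next to Hamp on chromosome 7. The 40 bases around both motifs of Hamp (chr7:30944109-30944148, minus strand) and the matching 40 bases of Hamp2 (chr7:30924258-30924297, minus strand) are set side by side to show where this stretch differs. Capitals mark the 4 differing bases, G14A, T22C, A32T and G40A, counted from 1 at the 5′ end with the base of Hamp first.
Hamp: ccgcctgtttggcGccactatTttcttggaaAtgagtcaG
Hamp2: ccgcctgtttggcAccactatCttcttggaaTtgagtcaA

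G14A lies within GGCGCC, at positions 11 to 16, so that Hamp2 lacks this string here. TTCTTGGAA at positions 23 to 31 is the same in both. Whether any of these bases bears on the level of either gene was not tested. Hamp2 averaged between 0.401 ± 0.261 CPM (the count scaled to library size, SD, n = 2, GF female serum) and 0.713 ± 0.236 CPM (n = 3, male cells), and its difference passed the test in none of the comparisons made here. No stretch of 100 bases was shared between the transcripts of Hamp (311 stretches) and Hamp2 (484 stretches).

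Libraries held 34097400 to 48742274 counts. Within groups, replicates differed by more than counting noise (chi-square per degree of freedom 5.46 to 53.4), so that none was a copy of another. Xist, which is silent in male cells, and Malat1 were highest in replicate 1 of the growth hormone group, and Xist next in replicate 2 of ConvR female serum. The summed level of 8 hepatocyte markers (such as Alb and Ttr) was 25951 to 26524 CPM in male cells and 11371 to 14994 CPM in the female groups. In bulk RNA, fewer cells of a type and less RNA per cell cannot be told apart.

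Hamp (mm10 chromosome 7, 30942368 to 30944032, 3 exon blocks) was the member that varied most between groups. Male cells in ConvR male serum held 150.5, 133 and 138 CPM, and female cells in the same serum 17.5, 29.8 and 14.3 CPM. Female cells held 99.0 and 65.9 CPM in ConvR female serum and 26.3 and 27.6 CPM in GF female serum. With growth hormone on top of GF serum they held 83.3, 32.6 and 68.4 CPM. The male libraries were above all others, the libraries in ConvR female serum overlapped those with growth hormone, and those in GF serum lay within the range of ConvR male serum on female cells.

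**Figure D1:**
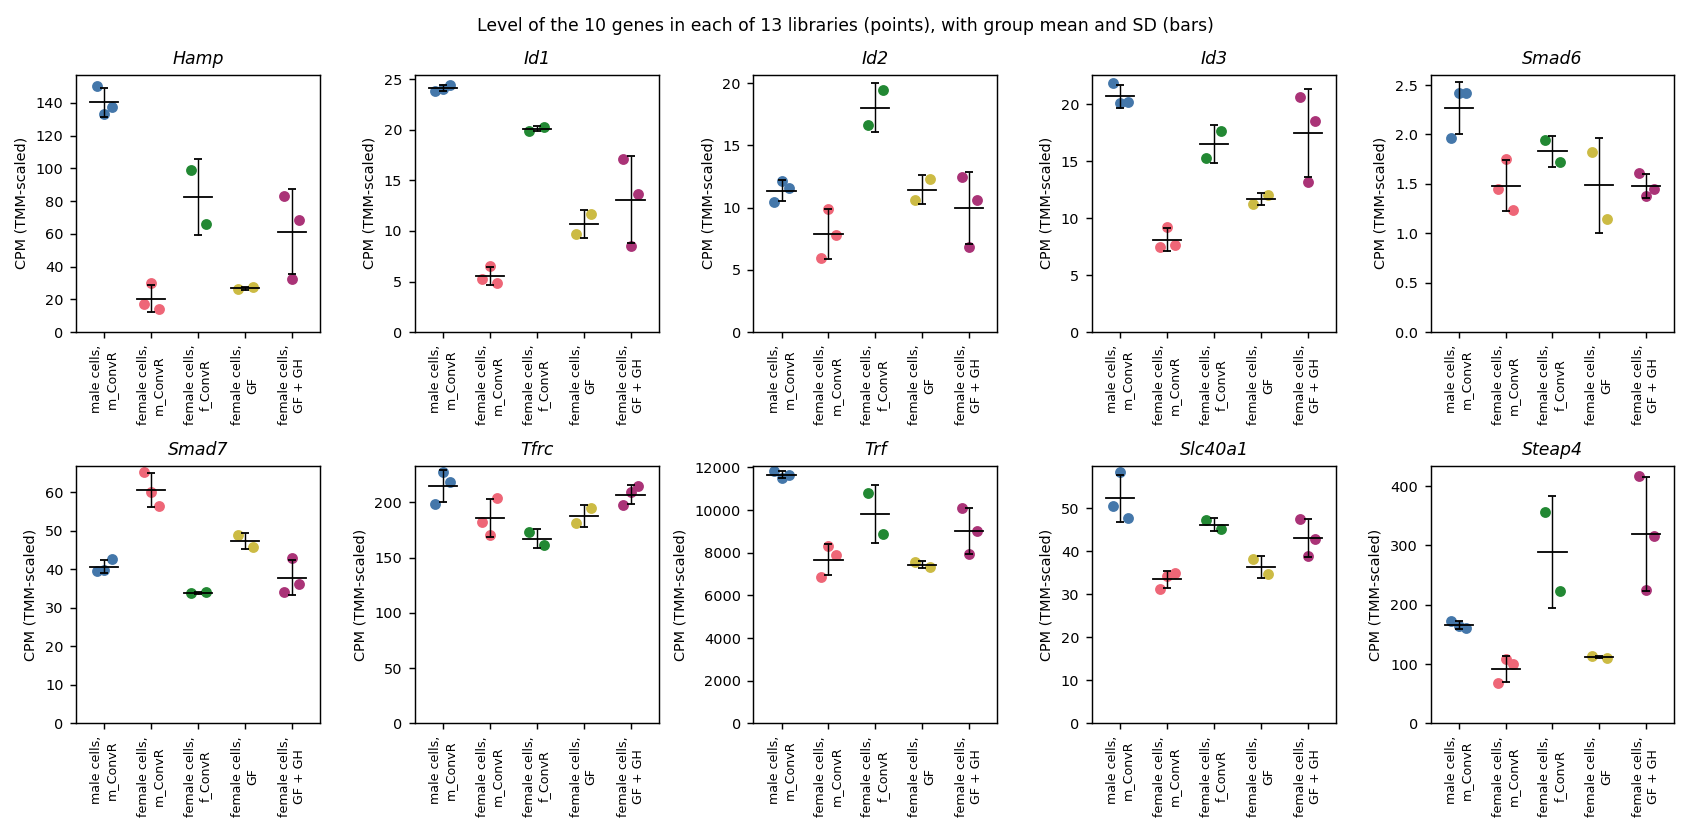
Level of each of the 10 genes in CPM (linear axis from 0) in every library (points), with the group mean and SD as black bars, in 5 groups of 2 or 3 libraries. Hamp stands at 133 to 150.5 CPM in male cells and at 14.3 to 29.8 CPM in female cells in the same serum, and Smad7 is ordered the other way.

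The first question was how female cells in GF female serum differed from those in ConvR female serum. Hamp averaged 27.0 ± 0.923 CPM (SD, n = 2) in GF and 82.5 ± 23.4 CPM (n = 2) in ConvR serum, a log2 change of -1.61 ± 0.339 (SE, adjusted p = 0.00974, edgeR quasi-likelihood test, as for all adjusted p-values below). Id1, an inhibitor of DNA-binding transcription factors, fell with it, from 19.9 and 20.3 CPM to 9.73 and 11.6 CPM (-0.91 ± 0.212, adjusted p = 0.0175). Steap4 fell from 356 and 222 CPM to 113 and 111 CPM (-1.36 ± 0.246, adjusted p = 0.00408). Trf changed by -0.40 ± 0.109 (adjusted p = 0.0389). Smad7 moved in the opposite direction, from 33.8 and 34.1 CPM to 48.8 and 45.9 CPM (0.48 ± 0.0981, adjusted p = 0.00839).

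In all, 1 of the 10 genes rose and 4 fell, beside 6.41% of the 17405 genes tested that passed in either direction (2.86% higher and 3.54% lower). Members that did not pass were Id2 (-0.66, adjusted p = 0.0971), Id3 (-0.50, 0.0861), Slc40a1 (-0.34, 0.0678), Smad6 (-0.29, 0.563) and Tfrc (0.17, 0.309). The median log2 difference of the 10 was -0.45, against -0.00265 over all genes tested.

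Leaving out 1 library of a group of 2 leaves a lone library, which is then assumed to vary like the other groups, here and for the list genes below. Without replicate 3 of ConvR female serum the same 5 genes passed. Without replicate 2 of ConvR female serum none of the 10 passed: Hamp stood at -1.29 (adjusted p = 0.107), Id1 at -0.93 (0.0862), Steap4 at -0.99 (0.0611), Smad7 at 0.47 (0.0783) and Trf at -0.26 (0.369). Without replicate 2 of GF serum only Steap4 passed, with Hamp at -1.58 (0.0896), Id1 at -0.79 (0.152), Smad7 at 0.43 (0.0857) and Trf at -0.43 (0.13). Without replicate 3 of GF serum Steap4 and Smad7 passed, with Hamp at -1.65 (0.0792), Id1 at -1.05 (0.0652) and Trf at -0.38 (0.191). All 5 genes kept their direction in each of these fits. In a fit of only these groups Trf did not pass (-0.39, adjusted p = 0.0981). Without the pair of libraries richest in Xist, Hamp (-1.29, adjusted p = 0.0597) and Trf (-0.25, 0.26) did not pass. Of the hepatocyte markers, 4 of 8 fell in GF serum (Apoa1, Tat, Cps1 and Hnf4a), with summed levels of 11371 to 11932 CPM against 11894 to 13792 CPM in ConvR female serum, and their part in the result was not tested.

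**Figure D2:**
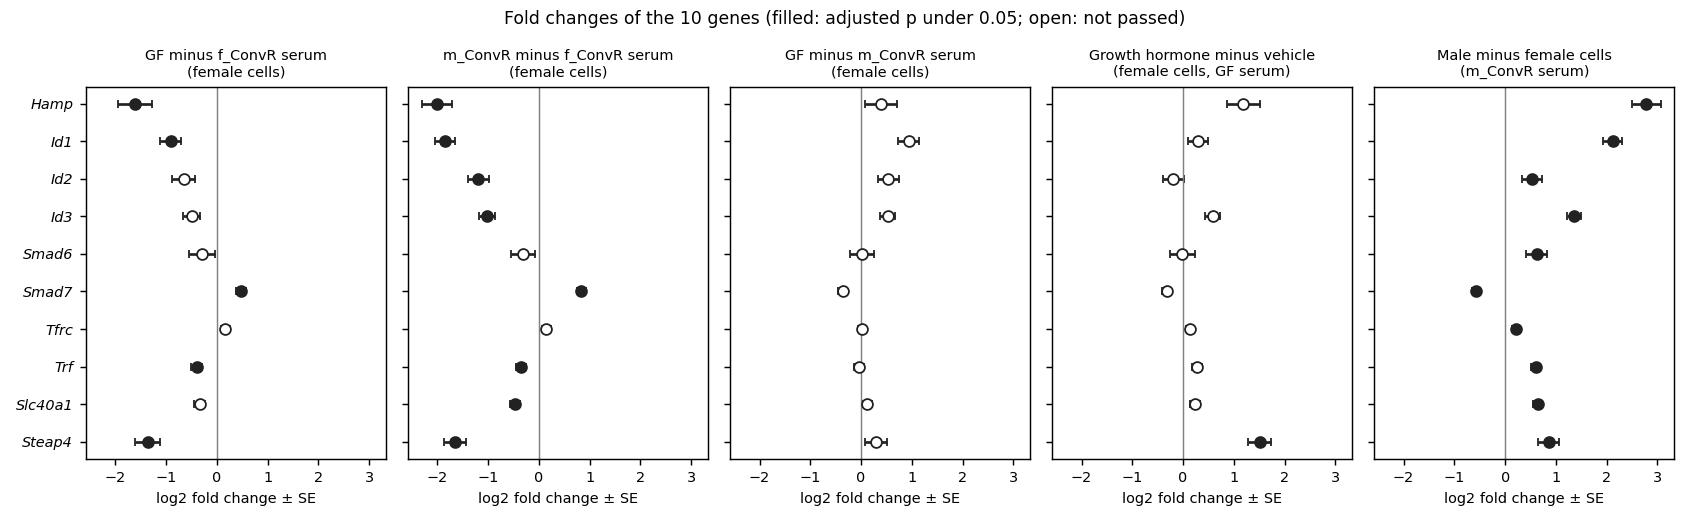
Log2 fold change (x axis, with SE) of each of the 10 genes (y axis) in the 5 comparisons, with filled points for an adjusted p under 0.05. Smad7 lies opposite to Hamp and Id1 in all 5 panels, and Steap4 is the only filled point with growth hormone. The panels share groups of libraries, so these directions are not 5 separate results. Hamp, Id1 and Smad7 did not pass in GF against ConvR male serum or with growth hormone.

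The second comparison asked how ConvR male serum (n = 3) differed from ConvR female serum (n = 2) on the same female cells. Hamp was lower in male serum, at 20.5 ± 8.14 against 82.5 ± 23.4 CPM (-2.01 ± 0.302, adjusted p = 0.000643). Id1 held 5.25, 6.56 and 4.91 CPM in male serum against 19.9 and 20.3 CPM in female serum (-1.85 ± 0.198, adjusted p = 3.73e-05), Id2 changed by -1.20 ± 0.204 (0.00182) and Id3 by -1.02 ± 0.151 (0.000549). All 3 Id genes, which encode related inhibitors of basic helix-loop-helix factors, thus fell together with Hamp. Smad7, the inhibitory SMAD, rose from 33.8 and 34.1 CPM to 65.3, 60.2 and 56.5 CPM (0.84 ± 0.091, adjusted p = 4.34e-05). Smad6, its relative, was low, at 1.24 to 1.94 CPM in these libraries, and its difference did not pass (-0.31, adjusted p = 0.449).

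Among the iron genes, Steap4 held 67.6, 108 and 99.8 CPM in male serum (-1.66 ± 0.218, adjusted p = 0.000219). Slc40a1, the target of hepcidin, fell from 47.3 and 45.1 CPM to 31.1, 34.3 and 35.0 CPM (-0.47 ± 0.096, adjusted p = 0.00646). Slc40a1 is also expressed in Kupffer cells, and the 10 Kupffer cell and macrophage markers summed to 80.8 to 101 CPM in male and 106 to 116 CPM in female serum. Of the 7 that could be tested only Cd68 passed, lower in male serum, and their median was 0.19 on the log2 scale, opposite to the sum; their part in the result was not tested. Trf fell by 0.36 on the log2 scale (adjusted p = 0.0345). Tfrc held 170.3 to 204 CPM in male and 161 to 173 CPM in female serum, which overlap (0.15, adjusted p = 0.283). In total 1 gene rose and 7 fell, beside 8.80% of all genes tested (3.95% higher and 4.85% lower), and the median of the 10 was -0.74 against 0.00155 over all genes. The calls of Hamp, Id1, Id2, Id3, Smad7 and Steap4 held in all 12 alternative analyses. Trf lost its call without replicate 1 (-0.28, adjusted p = 0.132) or 3 (-0.37, 0.0523) of male serum, without replicate 2 of female serum (-0.21, 0.333) without the pair richest in Xist (-0.21, 0.235) and in a fit of only these groups (-0.35, 0.123); Slc40a1 lost it without replicate 2 of female serum (-0.44, 0.0565).

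GF female serum and ConvR male serum were then set against each other on female cells. None of the 10 genes passed by the edgeR test on all libraries, beside 0.448% of all genes tested (0.184% higher and 0.264% lower), while 4 of the 10 (Id1, Id2, Id3 and Smad7) and 1822 of the 17405 genes tested had an unadjusted p under 0.05. Id1 came nearest, at 10.7 ± 1.36 CPM (n = 2) in GF and 5.57 ± 0.874 CPM (n = 3) in male serum (0.94 ± 0.207, adjusted p = 0.0578), with groups that did not overlap. Id3 stood at 0.52 (adjusted p = 0.177), Id2 at 0.54 (0.355) and Smad7 at -0.36 (0.0909). Hamp, at 26.3 and 27.6 CPM against 14.3 to 29.8 CPM, overlapped (0.40 ± 0.314, adjusted p = 0.716). Id1 did pass with library size as the only scaling (adjusted p = 0.0419), when just these groups were fitted (0.0289) and without the pair richest in Xist (0.00922). It also passed, like 5 other members, without the low-count filter (0.94 ± 0.125, 2e-11), where the SE of some members was smaller. For Hamp the SE was 0.0899 there against 0.314, and Hamp passed (0.40, adjusted p = 0.000928) although its libraries overlapped. With DESeq2, Id1 (0.94, adjusted p = 0.00172) and Smad7 (-0.36, 0.0212) passed. The 3 serum comparisons share their libraries in pairs, so the likeness of their values is no separate evidence.

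Growth hormone, a pituitary hormone that signals through JAK2 and STAT5, was added to female cells in GF serum for 2 h. Steap4 rose from 113 and 111 CPM to 417, 225 and 316 CPM (1.51 ± 0.232, adjusted p = 0.00338) and was the only member to pass, beside 0.586% of all genes tested (0.511% higher and 0.0747% lower). Hamp averaged 61.4 ± 26.1 CPM with and 27.0 ± 0.923 CPM without the hormone (1.19 ± 0.316, adjusted p = 0.126). All 3 hormone libraries were above both vehicle libraries for Hamp, replicate 2 by the smallest margin. Id3 stood at 0.58 (adjusted p = 0.121), Smad7 at -0.32 (0.139), Id1 at 0.30 (0.559) and Id2 at -0.19 (0.735).

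The calls of 3 of the 10 genes depended on replicate 2 of the hormone group. It was the lowest of its group for 8 of the 10 genes, all but Smad7, for which it was the highest, and Tfrc, while replicate 1 was the highest for the same 8. The shares of all genes lowest or highest in these libraries were not counted. Across genes, replicate 1 lay furthest from the others (chi-square per degree of freedom 41.0 and 37.0, against 9.26 between replicates 2 and 3). Without replicate 2, Hamp (1.49 ± 0.243, adjusted p = 0.0057), Id3 (0.75 ± 0.119, 0.00476) and Smad7 (-0.43 ± 0.081, 0.0184) passed beside Steap4. Replicate 2 was the hormone library nearest to vehicle for each of these 3 genes, so leaving it out widens their differences. Over all fits with 1 library left out, the change ran from 0.91 to 1.49 for Hamp and from 0.44 to 0.75 for Id3. For Smad7 it ran from -0.43 to -0.26. Steap4 lost its call without GF replicate 2 (1.52, adjusted p = 0.102) or GF replicate 3 (1.49, 0.0938), each of which leaves 1 vehicle library that is assumed to vary like the other groups. Socs3, which STAT signals induce, rose from 8.16 ± 0.635 to 13.2 ± 0.580 CPM (0.69 ± 0.110, adjusted p = 0.00483).

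**Figure D3:**
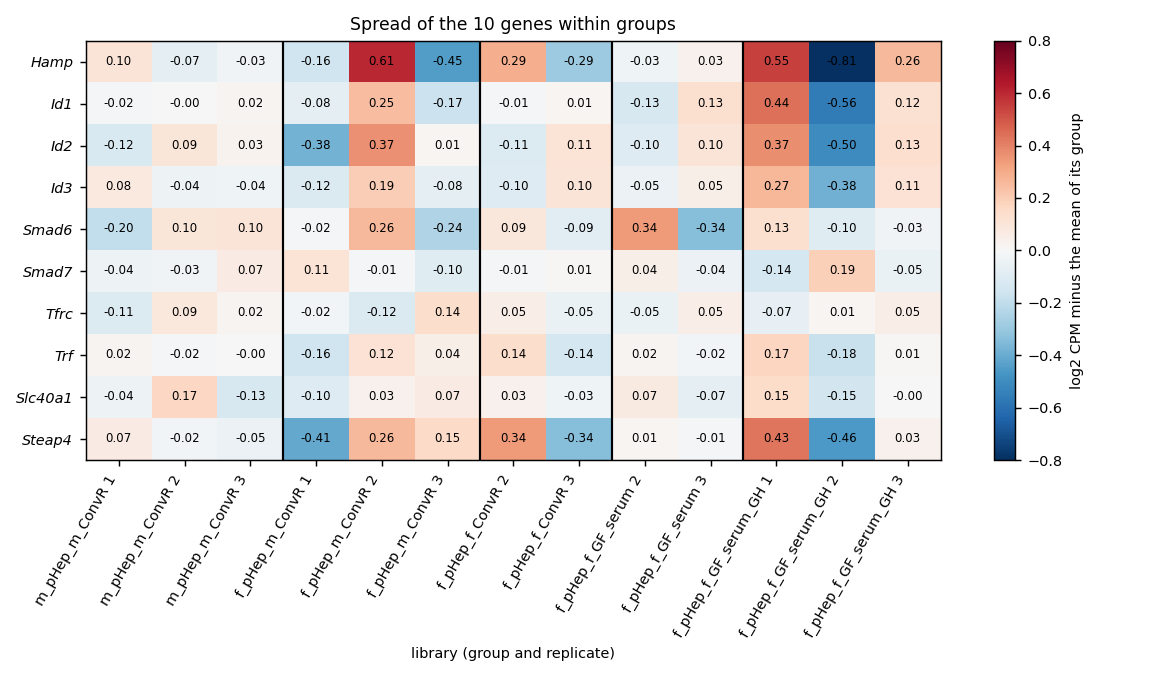
Deviation of each gene (rows) in each library (columns) from the mean of its group on the log2 CPM scale, in colour and as printed values, with black lines between groups. Replicate 2 of the growth hormone group is at -0.81 for Hamp and -0.56 for Id1, and the male libraries lie between -0.20 (Smad6) and 0.17 (Slc40a1).

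Spread within groups was unequal. The coefficient of variation of Hamp was 6.31% in male cells, 3.42% in GF serum, 28.4% in ConvR female serum, 39.6% in female cells in ConvR male serum and 42.5% with growth hormone. Replicate 2 of female cells in ConvR male serum was the highest of its group for 7 of the 10 genes, Hamp, the 3 Id genes, Smad6, Trf and Steap4. The share of all genes highest in that library was not counted. Where a group has only 2 libraries, their deviations are equal and opposite by construction.

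Male and female hepatocytes were compared in the same ConvR male serum. All 10 genes passed, 9 higher and 1 lower in male cells, beside 36.7% of all genes tested (17.6% higher and 19.0% lower). The median log2 difference of the 10 was 0.63, against -0.0212 over all genes tested and 1.66 for the 8 hepatocyte markers. Hamp averaged 141 ± 8.87 CPM in the 3 male and 20.5 ± 8.14 CPM in the 3 female libraries (2.78 ± 0.288, adjusted p = 1.56e-06). Id1 stood at 23.9, 24.1 and 24.5 against 5.25, 6.56 and 4.91 CPM (2.12 ± 0.185, adjusted p = 2.14e-07) and Id3 at 21.9, 20.1 and 20.2 against 7.47, 9.26 and 7.67 CPM (1.35 ± 0.139, 1.41e-06). Smad7 was lower in male cells, at 39.6, 39.9 and 42.6 against 65.3, 60.2 and 56.5 CPM (-0.58 ± 0.080, adjusted p = 3.34e-05). The male cells in male serum were at 20.1 to 21.9 CPM for Id3 and 39.6 to 42.6 CPM for Smad7, against 15.3 to 17.7 and 33.8 to 34.1 CPM for female cells in female serum, a pair of groups that differ in both cells and serum and were not tested.

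Of the iron genes, Trf held 11827, 11521 and 11647 CPM in male and 6859.9, 8297 and 7896 CPM in female cells (0.60 ± 0.0893, adjusted p = 6.3e-05). Slc40a1 rose by 0.64 ± 0.0873 (adjusted p = 2.56e-05) and Steap4 by 0.85 ± 0.200 (0.00308). Smad6 (0.62, adjusted p = 0.0311), Id2 (0.53, 0.0395) and Tfrc (0.21, 0.032) passed narrowly. With library size as the only scaling these 3 did not pass (adjusted p = 0.0609, 0.0753 and 0.175). Each also lost its call when 1 of several libraries was left out: Id2 without male replicate 2 or 3 or female replicate 1 or 3 (0.0863 to 0.168), Smad6 without the same 4 (0.0718 to 0.105), and Tfrc without male replicate 2 or 3 or female replicate 1 or 2 (0.0752 to 0.13). The other 7 held in all 12 alternative analyses. Markers of several cell types moved with the comparison. Of 8 hepatocyte markers 6 were higher and 1 lower in male cells, with a median log2 difference of 1.66. Their summed levels were 25951 to 26524 CPM in male and 12938 to 13726 CPM in female cells. The 9 stellate cell and fibroblast markers summed to 34.7 to 39.7 and 17.3 to 24.8 CPM, and 4 of them were higher and 1 lower in male cells. The 10 endothelial markers summed to 91.8 to 94.4 CPM in male and 55.1 to 63.0 CPM in female cells, the 10 Kupffer cell and macrophage markers to 149.6 to 169 and 80.8 to 101 CPM, and the 7 erythroid markers to 10.3 to 11.7 and 0.884 to 1.16 CPM. Of the 10 endothelial markers 7 were higher and 1 lower in male cells. Of 7 tested Kupffer cell and macrophage markers only Cd68 passed, higher in male cells, and the median log2 difference of the 7 was -0.27, opposite to the sum. The part of these cell types in the result was not tested.

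Per length, Trf was by far the most abundant of the 10 (2243 to 3514 CPM per kb of exon as group means). Hamp followed with 50.1 to 343 and Steap4 with 29.1 to 101 CPM per kb, while Tfrc stood at 27.0 to 34.7 in all groups. The Id genes stood at 3.23 to 20.8, Smad7 at 7.51 to 13.4, Slc40a1 at 3.72 to 5.81 and Smad6 at 0.461 to 0.708 CPM per kb. Trf shares 2108 exon bases on the same strand with the gene model Gm20425, whose counts were 100.4% of those of Trf, so that each may hold reads of the other. No other member shares exon bases with another gene in the annotation.

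The pathway around hepcidin was read from 122 other listed genes, of which 109 could be tested. In GF against ConvR female serum 6 of the 109 rose and 16 fell (20.2%, beside 6.41% of all genes tested), and in ConvR male against female serum 10 rose and 12 fell (20.2%, beside 8.80%). With GF against ConvR male serum 0 rose and 1 fell (Creb3l3, a liver transcription factor that also binds the Hamp promoter, -0.61 ± 0.0961, adjusted p = 0.0131), which is 0.917% beside 0.448% of all genes, and with growth hormone 5 rose and 0 fell (4.59%, beside 0.586%). Between male and female cells 34 rose and 17 fell (46.8%, beside 36.7% of all genes tested). The lists were chosen with results of these data known, and nothing particular to them is read from these shares. The median differences of the 109 genes were -0.07, -0.05, -0.03, 0.07 and 0.05 on the log2 scale in this order, against medians over all genes of -0.00265, 0.00155, -0.00614, -0.00114 and -0.0212. Creb3l3 lost its call without GF replicate 2 (adjusted p = 0.231) or 3 (0.188).

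Of 7 tested genes of the BMP ligand list, Gdf15, a stress hormone only distantly related to the BMPs, fell in GF (-0.34) and in ConvR male serum (-0.32). The other 6 passed in neither comparison with ConvR female serum. Bmp6, the main ligand that drives hepcidin in liver, stood at 0.272 to 0.520 CPM as group means and passed in no comparison. In male cells Bmp4 (2.39, adjusted p = 1.8e-05) and Bmp5 (1.15, 0.0352) rose, both too low in counts for the rule on named genes and named after their values were seen. Bmp6 shares 224 exon bases with Txndc5 on the other strand, whose counts were 72111% of its own, so its low counts may hold reads of Txndc5. Hjv, the BMP co-receptor specific to this pathway, fell from 5.31 ± 0.754 to 2.72 ± 0.299 CPM in GF serum (-0.96 ± 0.266, adjusted p = 0.0416) and to 2.00 ± 0.668 CPM in ConvR male serum (-1.42 ± 0.245, 0.00196). In male cells it stood at 5.88 ± 0.853 CPM, higher than in female cells in the same serum (1.56 ± 0.228, adjusted p = 5.48e-05). Acvr1, the type I receptor also called ALK2, changed the other way, at 27.9 ± 5.62 CPM in ConvR female, 42.1 ± 2.07 in GF and 58.4 ± 3.46 in ConvR male serum (0.59 and 1.06), and at 27.8 ± 2.41 CPM in male cells (-1.07). Hfe, the haemochromatosis protein, fell in GF serum (-0.37, adjusted p = 0.0269), and Tfr2, the iron-sensing transferrin receptor of hepatocytes, passed in no comparison (73.5 to 91.3 CPM as group means).

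**Figure D4:**
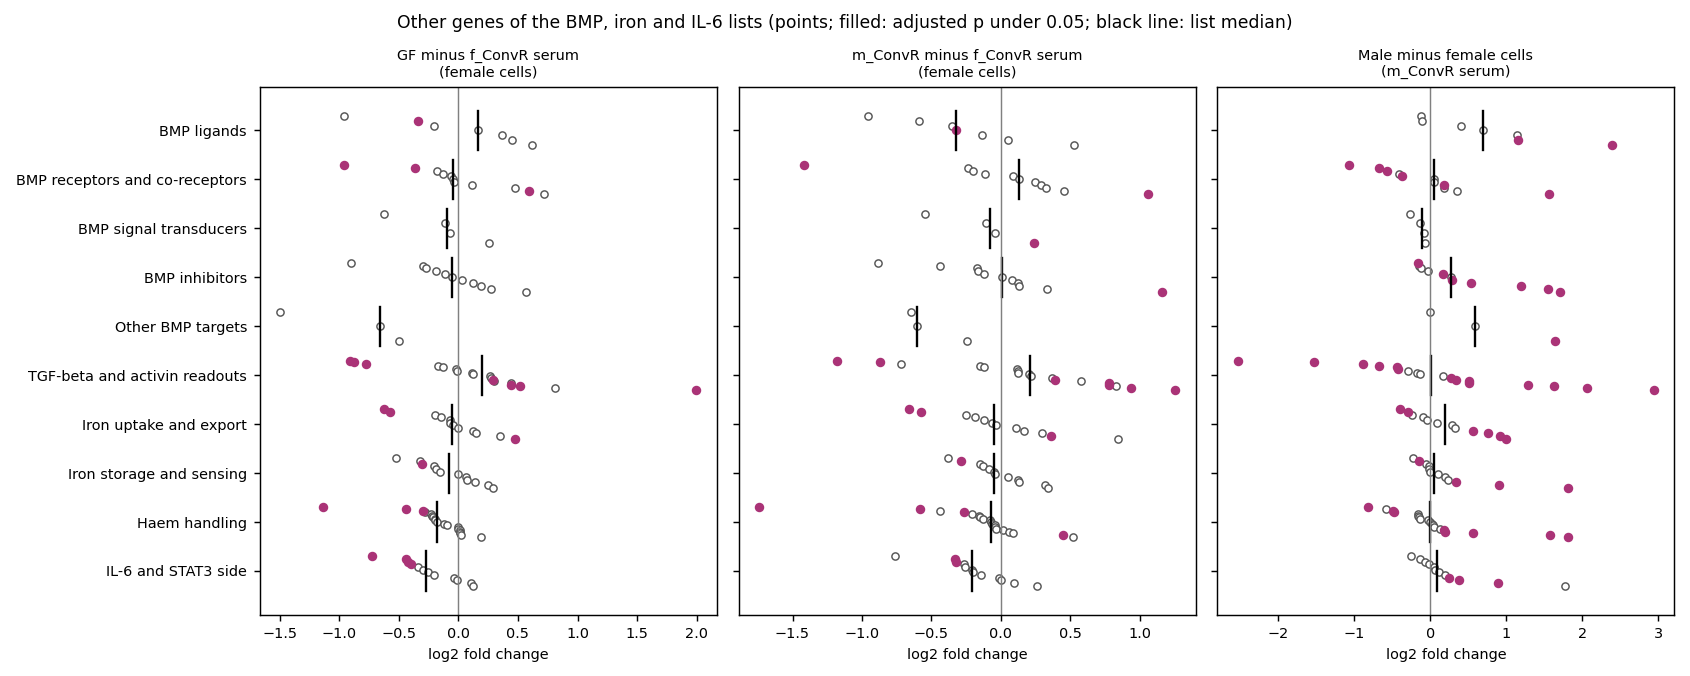
Log2 fold change (x axis) of the tested genes of 10 lists (rows) in 3 comparisons, with filled points for an adjusted p under 0.05 and a black line at the median of each list. Of the 109 genes, 6 rose and 16 fell in GF serum, where 6.41% of all genes tested passed, and 34 rose and 17 fell in male cells, where 36.7% of all genes passed.

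Of 11 tested BMP inhibitors, Erfe, erythroferrone, which binds BMP ligands and lowers hepcidin, rose in ConvR male against female serum, from 25.3 ± 7.89 to 56.6 ± 1.34 CPM (1.16 ± 0.154, adjusted p = 0.000239). It shares 357 exon bases with Ilkap on the other strand, whose counts were 112% of its own, and the strand setting of the counting is not given, so reads of the pair may not be separated. Tmprss6, the protease that cuts hemojuvelin, passed only between cells (0.28, adjusted p = 0.0222), where Fst, follistatin, an activin inhibitor, rose from 9.54 ± 0.605 to 31.0 ± 0.693 CPM (1.70 ± 0.0791). Atoh8, another BMP target, rose in male cells (1.64 ± 0.417, adjusted p = 0.00543) from 0.238 to 0.751 CPM, and passed in no serum comparison. Of 18 tested TGF-beta and activin genes, 4 rose and 3 fell in GF against ConvR female serum, beside 6.41% of all genes tested. In ConvR male against female serum 5 rose and 2 fell (beside 8.80%), and 8 were higher and 6 lower in male cells (beside 36.7%). Among them Inhba, an activin subunit, rose in GF serum from 3.59 ± 0.760 to 14.3 ± 1.04 CPM (1.99 ± 0.335, adjusted p = 0.00276). Inhbe, another subunit made by hepatocytes, fell in GF (-0.91) and in ConvR male serum (-1.18).

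Fth1 and Ftl1, the ferritin heavy and light chains, stood at 2597 to 2900.2 and 4142 to 4531 CPM as group means and passed in no comparison. Of 13 tested genes of iron uptake and export, Cp, ceruloplasmin, the ferroxidase that works with ferroportin, fell in GF (-0.57, adjusted p = 0.0308) and ConvR male serum (-0.66, 0.00583), rose with growth hormone (0.71, 0.0229) and was higher in male cells (0.56, 0.00175). Lcn2, which binds iron-loaded siderophores, fell in both sera (-0.62 and -0.57). Slc25a37, mitoferrin, which carries iron into mitochondria, rose in both (0.47 and 0.36). Of 19 tested haem genes, Hp, which binds free haemoglobin, changed by -1.13 and -1.74 in both sera and by 1.82 between cells, and Hpx, which binds haem, by -0.44, -0.58 and 1.57. Of 12 genes on the IL-6 and STAT3 side, 4 fell in GF serum (Il6ra at -0.73, Cebpa at -0.44, Osmr at -0.42 and Il6st at -0.39) and 8 did not pass. With growth hormone 3 rose (Socs3, Osmr and Il6, the last too low for the rule on named genes and named after its value was seen). Against ConvR female serum, Socs3 passed neither in GF (0.11, adjusted p = 0.666) nor in ConvR male serum (-0.20, 0.294). It was higher in male than in female cells (0.89, adjusted p = 4e-06).

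Most calls of these list genes also hung on single libraries. Of 19 named in GF against ConvR female serum, only Inhba held when each of the 4 libraries was left out. Lost calls were 14 without replicate 2 of ConvR female serum (adjusted p 0.0672 to 0.606, with Hjv, Hfe, Hp, Cp, Lcn2, Gdf15, Inhbe, Il6ra, Il6st and Osmr among them), 4 without its replicate 3 (0.0535 to 0.144, with Acvr1 and Gdf15), 17 without GF replicate 2 (0.0501 to 0.225, all but Acvr1 and Inhba) and 14 without GF replicate 3 (0.0613 to 0.237, with Acvr1, Hjv, Hfe, Hp and Cp). In ConvR male against female serum 6 of 19 held in each such fit, Hjv, Acvr1, Erfe, Inhbe, Hp and Hpx. Without replicate 2 of female serum 10 of the 19 were lost, with Cp and Lcn2 (0.0551 to 0.353), and Gdf15 was lost without its replicate 3 and without male serum replicate 3. With growth hormone, Cp was lost in 4 of the 5 fits, Osmr without either GF library, and Socs3 without GF replicate 2. Between cells 21 of 27 held, and the 6 others, Aco1, Acvr2b, Bambi, Creb3l3, Tmprss6 and Twsg1, were lost in 2 or more of the 6 fits (0.0503 to 0.167).

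The genes whose centred log2(CPM + 1) profile over the 13 libraries lay nearest to that of Hamp, among 13312 genes with a mean of at least 1 CPM, were Fgg (root mean square difference 0.36, against a spread of 1.10 for Hamp itself), Serpina7, Iigp1, Hp and Lbp. Fgg, the fibrinogen gamma chain, averaged 609 CPM in male cells, 92.4 CPM in female cells in ConvR male serum, 249 in ConvR female serum, 121 in GF serum and 179 CPM with growth hormone. Nearest to Id1 were Fgb (0.19, against a spread of 0.74), Hp, Acnat2, Fga and Cdo1. Fgb, the fibrinogen beta chain, averaged 2185, 732, 2125, 1150.1 and 1684 CPM in the same order of groups.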

How the data were processed

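Total RNA-seq libraries of cultured hepatocytes were compared by gene. The authors deposited unscaled whole-number counts of reads on the exons of each gene. STAR 2.4.0i and mm10 are named in the submitters' processing notes; the counting program, its annotation, strand setting and filters were not given in the sources used here. A count can therefore hold reads of an overlapping gene. The 2 columns that share one header name could not be assigned to a sample and were used in no step, and 1 labelled germ-free sample had no column of its own, so 13 libraries entered.

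After filterByExpr (minimum count 10), 17405 genes remained and were scaled by TMM in edgeR 4.0.16 (R 4.3.3). One quasi-likelihood model of the 5 groups, with 8 residual degrees of freedom and a biological coefficient of variation of 9.02%, gave two-sided tests of 5 comparisons, adjusted by Benjamini-Hochberg over all genes tested, threshold 0.05. CPM use TMM-scaled library sizes. The test was tried on simulated counts first. Alternatives were other scalings, no filter, DESeq2 1.42.0, only the groups compared, the replicate number as a block and each library left out. Positions come from GENCODE M21 (mm10) and promoter sequences from RefSeq (GRCm38.p6).

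The 10 genes and the lists were chosen with earlier results of these data known. Other list genes were named if they passed with a mean count of at least 50, up to 4 per list and comparison by size of change, besides a fixed set (Tfr2, Hfe, Hjv, Tmprss6, Bmp6, Fth1, Ftl1, Hamp2, Atoh8 and Socs3). Of all list entries, 179 matched by symbol, 5 by an older symbol and 4 by gene identifier.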

Additional observations from a re-analysis of the deposited data

How the results depend on the processing

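The number of the 10 genes past the threshold changed as follows. In GF against ConvR female serum it was 5, and 8 without the low-count filter, 3 without the pair of libraries richest in Xist and 0 to 5 with 1 library left out. In ConvR male against female serum it was 8, and 6 to 8 with 1 library left out. In GF against ConvR male serum it was 0, and 1 with library size only, in a fit of only these groups or without the Xist-rich pair, 6 without the filter, 2 with DESeq2 and 0 with any 1 library left out. With growth hormone it was 1, and 5 without the filter, 2 with DESeq2 and 0 to 4 with 1 library left out. Between cells it was 10, and 7 to 10 over the alternatives. None of the 10 genes changed sign after passing.

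Over all genes, the 1115 calls in GF against ConvR female serum became 1731 without the filter, 611 with only these groups, 367 without the Xist-rich pair and 274 to 1225 with 1 library left out. The 1532 calls in ConvR male against female serum became 468 with only these groups, 825 without the Xist-rich pair and 663 to 1652. The 78 calls in GF against ConvR male serum became 622 without the filter, 296 with DESeq2, 286 without the Xist-rich pair and 2 to 160. The 102 calls with growth hormone became 796 without the filter, 255 with DESeq2, 156 with only these groups and 33 to 190. Between cells, 3065 genes were higher and 3314 lower, against 2349 and 4643 with library size only. The cause of these changes was not tested.

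Same-numbered libraries of different groups had correlations of their deviations over genes from -0.173 to 0.126. Differently numbered libraries were not compared, so these values cannot show whether a replicate number marks a shared batch. With the number as a replicate block, 4, 7, 0, 1 and 9 of the 10 genes passed in the 5 comparisons in the order above (Trf lost its call in both comparisons with ConvR female serum, adjusted p = 0.0649 and 0.0643, and Id2 between cells, 0.0585), with 31 calls over all genes in GF against ConvR male serum and 62 with growth hormone. Smad6 (895 counts over 13 libraries) and Hamp2 (287) are limited by depth.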
